A study of Mus musculus with 12 samples.

Results

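Red blood cells are made under the control of a small set of transcription factors, and 10 genes of this machinery were followed here in newborn mouse skull: Klf1, Gata1, Gata2, Tal1, Lmo2, Zfpm1, Nfe2, Gfi1b, Epor and Tfrc. They were taken by name from the authors' table of 23358 genes, and all 10 were present and passed the filter on low counts. The genes were chosen by name with earlier results of these samples known, including lower levels of red cell genes in C57BL/6 mutants and higher levels in BALB/c mutants. Their levels and the fitted values below are therefore descriptions of these samples, and the counts of genes called are no independent support for a red cell pattern.

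The tissue was frontal bone, with nasal bone and the sutures bordering it (coronal, frontonasal), taken at postnatal day 3 and digested with collagenase and trypsin before RNA extraction. Each of 4 groups had 3 samples: wild type on C57BL/6 (replicates 1, 2 and 3), FGFR2C342Y/+ on C57BL/6 (replicates 4, 5 and 6), wild type on BALB/c (replicates 13, 14 and 15) and FGFR2C342Y/+ on BALB/c (replicates 16, 17 and 18). The mutants carried 1 copy of the Crouzon syndrome allele of the fibroblast growth factor receptor Fgfr2, and the comparisons address how that allele acts on each background. The labels do not say whether a sample was 1 animal or a pool, so p-values measure the spread between these samples, which may be technical, and they give no sex. The run identifier in the descriptions was shared by all C57BL/6 samples and another by all BALB/c samples, so strain and run cannot be told apart.

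Newborn bone holds marrow in which erythroid progenitors mature. GATA2 acts in blood stem and progenitor cells and is replaced by GATA1 as cells commit to the red lineage. GATA1 works in a complex with TAL1 and the adaptor LMO2, with ZFPM1 (FOG1) as its cofactor, and KLF1 switches on globin and membrane genes. Erythropoietin signals through EPOR to keep the precursors alive, and TFRC, the transferrin receptor, brings in the iron that haem needs. Several of these genes also act elsewhere: GATA1, NFE2, GFI1B, TAL1 and ZFPM1 in megakaryocytes, GATA2 in mast cells, LMO2, TAL1 and GATA2 in endothelium, and TFRC in dividing cells of any kind.

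Because most of these genes varied together across the samples, the 250 bases before the transcript start are shown for the 3 genes that fell most in C57BL/6 mutants (Klf1, Gata1 and Gfi1b) and for both receptors (Epor and Tfrc). They are from RefSeq on GRCm38.p6, which held such windows for 8 of the 10 genes; Nfe2 and Lmo2 had none. Capitals mark a GATA word (AGATAA, where the first base may also be T and the last base G) or a KLF word (CCNCNCCC), on either strand. No GATA word overlapped a KLF word in these windows, although KLF words overlap each other in Epor and Tfrc. The windows are chr8:84901732-84901981 (plus strand) for Klf1, chrX:7967911-7968160 (minus) for Gata1, chr2:28621983-28622232 (minus) for Gfi1b, chr9:21963577-21963826 (minus) for Epor and chr16:32608646-32608895 (plus) for Tfrc.
Klf1: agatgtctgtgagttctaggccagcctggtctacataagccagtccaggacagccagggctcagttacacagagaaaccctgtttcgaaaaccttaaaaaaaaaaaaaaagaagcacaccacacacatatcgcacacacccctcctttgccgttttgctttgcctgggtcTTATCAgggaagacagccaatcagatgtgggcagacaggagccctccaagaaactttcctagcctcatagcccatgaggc
Gata1: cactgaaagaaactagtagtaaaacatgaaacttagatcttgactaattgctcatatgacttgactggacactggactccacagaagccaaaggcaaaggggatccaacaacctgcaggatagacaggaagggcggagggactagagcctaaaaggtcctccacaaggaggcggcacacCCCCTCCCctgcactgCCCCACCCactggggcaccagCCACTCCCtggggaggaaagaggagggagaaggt
Gfi1b: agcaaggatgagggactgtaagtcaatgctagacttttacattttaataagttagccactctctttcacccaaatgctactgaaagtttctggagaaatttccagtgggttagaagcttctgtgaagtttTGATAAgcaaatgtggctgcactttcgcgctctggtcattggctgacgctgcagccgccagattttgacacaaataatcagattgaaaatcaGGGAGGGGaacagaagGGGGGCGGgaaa
Epor: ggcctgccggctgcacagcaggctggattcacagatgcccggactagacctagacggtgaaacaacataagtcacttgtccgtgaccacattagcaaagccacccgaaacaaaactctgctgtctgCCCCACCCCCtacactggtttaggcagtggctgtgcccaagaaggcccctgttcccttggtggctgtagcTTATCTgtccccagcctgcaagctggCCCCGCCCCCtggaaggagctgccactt
Tfrc: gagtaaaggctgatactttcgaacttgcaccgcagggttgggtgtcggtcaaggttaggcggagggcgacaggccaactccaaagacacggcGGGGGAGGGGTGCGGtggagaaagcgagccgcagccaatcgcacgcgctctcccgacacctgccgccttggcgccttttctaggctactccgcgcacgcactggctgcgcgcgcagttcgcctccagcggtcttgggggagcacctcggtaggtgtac

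Positions are counted from the RefSeq start. For Klf1 that start lies inside the gene as the authors' coordinates give it below, so its window reaches into the gene, and for Gata1 it lies upstream of the authors' start. The windows of Gfi1b, Epor and Tfrc end at the authors' start. A GATA word began 80 bases before the RefSeq start in Klf1, 120 bases before it in Gfi1b and 54 bases before it in Epor. It was found in 3 of the 8 windows, against 26.5% of all 32851 RefSeq windows of this length. The KLF word was found in 7 of the 8 windows, with Klf1 the exception, against 45.9% of all windows. An E-box word of the kind TAL1 binds (CAGCTG, or the same with A as the base after CAG, either strand) was present in 2 windows, those of Klf1 and Epor, against 25.5% of all windows, and the NFE2 word TGAGTCA (either strand) in 0 of 8 against 4.46%. These matches are letters in a window and were not tested as binding sites.

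Library totals ran from 27181658 to 46521546 counts. All counts in the table were even numbers; how reads of a pair were counted is not given in the sources used here. The osteoblast markers (8 of 8 tested) summed to between 66401 and 152412 CPM (the count scaled to a common library size). The sum does not show that each gene was abundant. In C57BL/6 wild type Spp1 averaged 6120 CPM, Runx2 310 CPM and Bglap2 27.9 CPM. In C57BL/6 mutants 6 of these 8 osteoblast genes were higher (edgeR, median log2 0.60), against 11.3% of all genes. This was the opposite direction to the red cell genes, and the sums did not overlap (66401 to 114457 CPM in wild type and 127163 to 152412 CPM in mutants). The lowest sum was that of C57BL/6 wild type replicate 1, against 113779 and 114457 CPM in replicates 2 and 3. C57BL/6 mutant replicate 4 stood apart: the list of olfactory and airway epithelial genes summed to 157.6 CPM there, against 2.62 and 3.23 CPM in replicates 5 and 6 and 331 to 669 CPM in C57BL/6 wild type. In BALB/c mutant replicate 16 skeletal muscle genes summed to 398 CPM, against 24.8 and 3.35 CPM in replicates 17 and 18, and mast cell genes to 75.2 CPM, against 36.4 and 24.7 CPM. On C57BL/6, Fgfr2 averaged 249 ± 35.8 CPM without the allele and 361 ± 20.6 CPM with it (SD over 3 samples each; log2 0.54, adjusted p 0.00405, edgeR). On BALB/c it averaged 282 ± 11.4 and 299.9 ± 24.95 CPM, with overlapping samples (log2 0.09, adjusted p 0.8, edgeR). Both alleles are counted together, so this does not check the genotype labels. Counts of the 10 genes in a sample ran from 30 (Gfi1b, C57BL/6 mutant replicate 6) to 5322 (Tfrc, BALB/c mutant replicate 17).

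**Figure D1:**
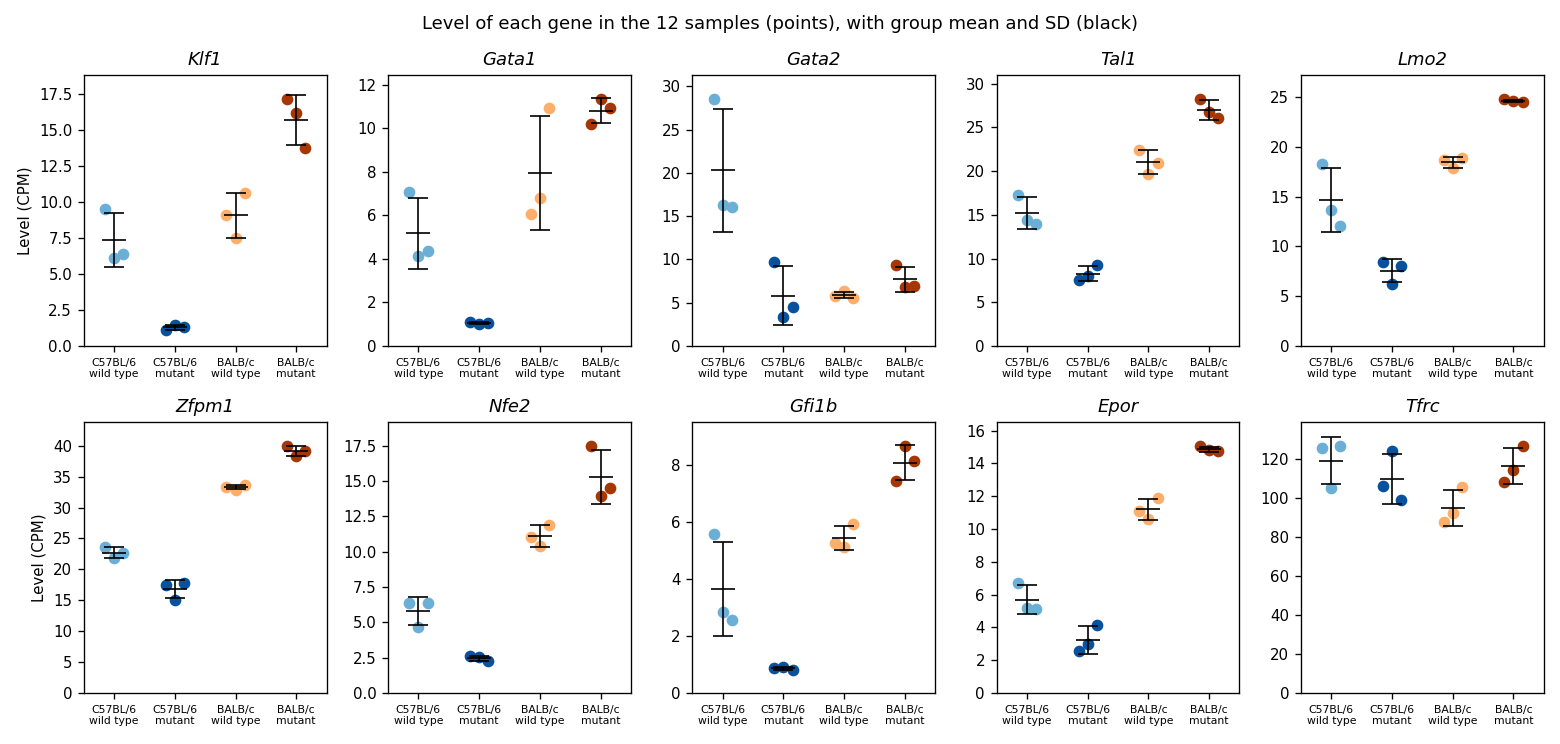
Level of each of the 10 genes in CPM (vertical axes, from 0) in the 12 samples (points) by group, with the group mean and SD in black. For 9 genes all C57BL/6 mutant samples lie below all C57BL/6 wild type samples; Tfrc is the exception, and Gata2 is the gene with its highest group mean in C57BL/6 wild type among those 9.

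In C57BL/6, mutants had lower levels of 9 of the 10 genes at an adjusted p under 0.05 (edgeR quasi-likelihood test, Benjamini-Hochberg adjustment over 16190 genes), and 0 were higher. Among all genes tested, 12.6% were called lower and 11.3% higher. The same 9 genes had no overlap between the groups, where 21.9% of all genes lay wholly lower in mutants. The falls ran from 1.35-fold for Zfpm1 to 5.70-fold for Klf1, and the median log2 fold change of the 10 genes was -1.09 against -0.004 over all genes tested. In bulk tissue, fewer cells of a type and less RNA per cell cannot be told apart.

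Klf1 (chromosome 8, 84901928 to 84905295), the activator of the late red cell programme, had 9.56, 6.14 and 6.43 CPM in the C57BL/6 wild type samples and 1.08, 1.46 and 1.35 CPM in the mutants. The lowest wild type sample was thus above every mutant sample by a wide margin. The group means were 7.38 ± 1.90 and 1.30 ± 0.191 CPM (SD, n = 3 each), which edgeR fitted as -2.51 in log2 units with SE 0.208 and adjusted p 8.26e-05. Of the 10 genes, Klf1 had the largest change.

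Gata1 (chromosome X, 7959260 to 7967815), the central factor of red cell and megakaryocyte maturation, had 7.07, 4.16 and 4.34 CPM in wild type and 1.08, 1.02 and 1.08 CPM in mutants. The mutants lay close together and below all wild type samples. Its log2 fold change was -2.29 (SE 0.259, adjusted p 0.000338, edgeR). Gfi1b (chromosome 2, 28609450 to 28621982), a repressor needed in the red cell and megakaryocyte lines, showed a like pattern, with 5.56, 2.83 and 2.57 CPM in wild type and 0.859, 0.922 and 0.808 CPM in mutants. Its fitted log2 change was -2.08 with SE 0.267 (edgeR, adjusted p 0.000598), and its mutant values rest on 30 to 38 counts a sample. C57BL/6 wild type replicate 1 was the highest sample of its group for both genes, for Klf1 and for every other gene called lower. Without it the log2 changes were -2.26 for Klf1, -1.98 for Gata1 and -1.62 for Gfi1b, all with an adjusted p under 0.05 (edgeR). In that fit they were -1.45 for Gata2, -0.74 for Lmo2 and -0.66 for Epor.

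The partners of GATA1 changed less. Zfpm1 (chromosome 8, 122282141 to 122337247), its cofactor, fell from 22.7 ± 0.869 to 16.8 ± 1.51 CPM (SD, n = 3 each; log2 -0.43, SE 0.0659, adjusted p 0.00145, edgeR). Tal1 (chromosome 4, 115059527 to 115071755) had 17.2, 14.5 and 13.9 CPM in wild type and between 7.55 and 9.21 CPM in mutants, a fall of 1.85-fold (adjusted p 0.000338, edgeR). Lmo2 (chromosome 2, 103957995 to 103981878) fell from 14.7 ± 3.23 to 7.58 ± 1.16 CPM (SD, n = 3 each; adjusted p 0.00137, edgeR). The locus of 4931422A03Rik overlaps Lmo2 on the opposite strand and that of Gm20388 overlaps Zfpm1 on the same strand, and the counting is not stated to use strand. In the GENCODE annotation the transcripts of Lmo2 and Zfpm1 shared 0 words of 50 bases, on either strand, with those of other genes.

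Nfe2 (chromosome 15, 103248218 to 103255416) encodes a subunit of a factor that binds globin control regions and drives platelet formation. It had 6.39, 4.64 and 6.33 CPM in wild type and 2.58, 2.52 and 2.26 CPM in mutants, again with no overlap. The log2 fold change was -1.24 (SE 0.147, adjusted p 0.000402, edgeR).

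Gata2 (chromosome 6, 88198664 to 88207032) encodes the GATA factor of stem and progenitor cells. It had 28.5, 16.3 and 16.1 CPM in C57BL/6 wild type and 9.71, 3.30 and 4.47 CPM in mutants, where replicate 4 was the highest. The log2 fold change was -1.80 (SE 0.345, adjusted p 0.00469, edgeR), and -2.39 without mutant replicate 4. The epithelial list was also highest in replicates 1 and 4 of their groups (669 and 157.6 CPM summed), and its part in the Gata2 difference was not tested. With only the 6 C57BL/6 samples in the fit, the adjusted p was 0.051 (edgeR).

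Epor (chromosome 9, 21958899 to 21963576), the erythropoietin receptor, had 6.70, 5.18 and 5.15 CPM in C57BL/6 wild type and 2.53, 3.01 and 4.15 CPM in mutants. The groups did not overlap, and the log2 fold change was -0.82 (SE 0.168, adjusted p 0.00633, edgeR). With only the 6 C57BL/6 samples in the fit, the adjusted p was 0.066 (edgeR). Tfrc (chromosome 16, 32608896 to 32632794) had 126, 105 and 127 CPM in wild type and 106, 124 and 99.0 CPM in mutants. These groups overlapped, and the log2 difference of -0.12 (SE 0.104, adjusted p 0.43, edgeR) was within the spread between replicates.

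**Figure D2:**
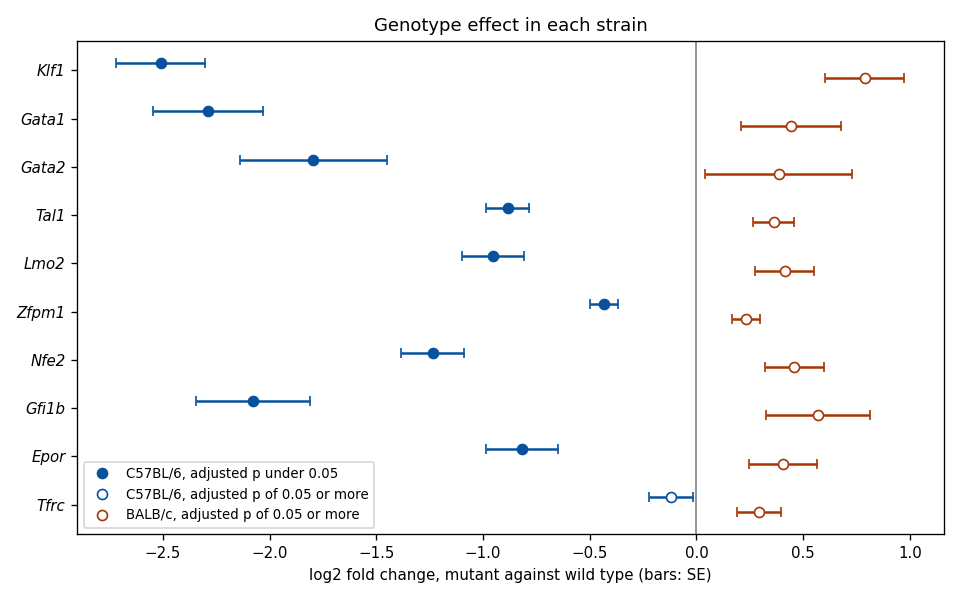
Log2 fold change of mutant against wild type (horizontal axis) for each gene in C57BL/6 (blue) and BALB/c (brown), with bars of 1 SE; filled points have an adjusted p under 0.05. The C57BL/6 values run from -2.51 (Klf1) to -0.12 (Tfrc), and all BALB/c values lie between 0.23 (Zfpm1) and 0.79 (Klf1) with open points.

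In BALB/c the fitted differences of all 10 genes were above 0, but 0 passed the adjusted threshold (edgeR), where 0.136% of all genes were called in either direction and 0.0926% higher. At an unadjusted p under 0.05 there were 8 of 10, against 7.11% of all genes higher under that rule. DESeq2 called 2 (Klf1 and Tal1), against 1.75% of all genes higher. A fit of the 6 BALB/c samples alone also called 2 (Klf1 and Lmo2), against 0.341%. For 9 of the 10 genes every mutant sample was above every wild type sample, against 9.93% of all genes; Gata1 was the exception. The median log2 difference of the 10 genes was 0.41 against 0 over all genes tested.

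Klf1 again had the largest difference, with 9.09, 7.53 and 10.7 CPM in BALB/c wild type and 17.1, 16.2 and 13.8 CPM in mutants. The log2 value was 0.79 (SE 0.186, adjusted p 0.124, edgeR). Gata1 had 6.09, 6.79 and 10.95 CPM in wild type and 10.2, 11.3 and 10.9 CPM in mutants, so that wild type replicate 15 lay among the mutants. Epor had 11.1, 10.6 and 11.9 CPM in wild type and 15.05, 14.81 and 14.76 CPM in mutants (log2 0.41, SE 0.160, adjusted p 0.345, edgeR). Gata2 had 5.78, 6.30 and 5.56 CPM in wild type and 9.35, 6.80 and 6.94 CPM in mutants (log2 0.39, adjusted p 0.738, edgeR), with the highest value in replicate 16. Without that replicate the log2 difference was 0.23 (adjusted p 0.919, edgeR), and the part of its mast cell or muscle transcripts was not tested. The SE of the Gata2 value, 0.345, was the largest of the 10 in this comparison.

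The BALB/c differences of the other genes were also below that of Klf1. Nfe2 averaged 11.1 ± 0.758 CPM in wild type and 15.3 ± 1.90 CPM in mutants (SD, n = 3 each). Gfi1b averaged 5.43 ± 0.422 and 8.07 ± 0.611 CPM, and Lmo2 averaged 18.5 ± 0.544 and 24.6 ± 0.132 CPM (SD, n = 3 each). Tal1 lay between 19.6 and 22.4 CPM in wild type and between 26.0 and 28.2 CPM in mutants. Zfpm1 lay between 32.9 and 33.7 CPM and between 38.4 and 39.9 CPM. Tfrc lay between 87.5 and 105 CPM and between 108 and 127 CPM.

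The genotype effects in the 2 strains differed for 9 of the 10 genes in the test of the interaction (BALB/c effect minus C57BL/6 effect, adjusted p under 0.05, edgeR), all in the direction of a more positive effect in BALB/c. Among all genes 5.46% were called in that direction. This test uses the same C57BL/6 samples as the genotype comparison above and is no second observation of it. The values were largest for Klf1 (log2 3.30, SE 0.279, adjusted p 0.000119), Gata1 (2.73, SE 0.347, adjusted p 0.00155) and Gfi1b (2.65, SE 0.361, adjusted p 0.00213). They were smallest for Zfpm1 (0.66, SE 0.0922, adjusted p 0.00241) and for Tfrc (0.41, SE 0.148, adjusted p 0.0908), which was not called. Gata2 (2.18, adjusted p 0.0206) lost its call in fits lacking replicate 6 (C57BL/6 mutant), replicate 15 (BALB/c wild type) or replicate 16 (BALB/c mutant) (adjusted p 0.0562, 0.0507 and 0.0503). Without replicate 4 (C57BL/6 mutant) the Gata2 value was 2.78 (adjusted p 0.00033, edgeR).

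Between the wild type groups, which differ in strain and run together, 5 of the 10 genes were higher in BALB/c and 2 lower (edgeR), against 22.8% and 25.6% of all genes. Nfe2 (1.92-fold), Epor (1.97-fold), Zfpm1 (1.47-fold), Tal1 (1.38-fold) and Gata1 (1.53-fold) were the higher genes. The Gata1 call (adjusted p 0.0483, edgeR) was lost in 11 of 19 alternatives, and its log2 value went from 0.61 to 0.31 without BALB/c wild type replicate 15. Gata2 was 3.45-fold lower in BALB/c wild type (log2 -1.79, SE 0.348, adjusted p 0.00153, edgeR). The epithelial genes moved with it, with 8 of 8 lower in BALB/c wild type and sums of 2.55 to 2.99 CPM there against 331 to 669 CPM in C57BL/6 wild type; their part in the Gata2 difference was not tested. Tfrc was 1.25-fold lower (adjusted p 0.0223, edgeR). The Tfrc call was lost in wild type fits lacking replicate 1 or 3 (C57BL/6) or replicate 13 or 14 (BALB/c) (adjusted p 0.0624 to 0.0827). Klf1 did not pass (log2 0.30, adjusted p 0.206, edgeR), nor did Gfi1b (log2 0.57, adjusted p 0.075) or Lmo2 (log2 0.33, adjusted p 0.0695). Without C57BL/6 wild type replicate 1 these 3 passed, with log2 values of 0.54 for Klf1 (adjusted p 0.0245), 1.01 for Gfi1b (adjusted p 0.000646) and 0.53 for Lmo2 (adjusted p 0.00369).

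Between the mutant groups 8 of the 10 genes were higher in BALB/c and 0 lower (edgeR). Of all genes 36.9% were called in either direction, with 2914 higher and 3054 lower. The difference was 12.1-fold for Klf1, 10.2-fold for Gata1, 9.32-fold for Gfi1b and 6.21-fold for Nfe2, and 2.33-fold for Zfpm1, the smallest of the 8. Gata2 (adjusted p 0.394) and Tfrc (adjusted p 0.554) did not pass. Without C57BL/6 mutant replicate 4, Gata2 was called higher in BALB/c mutants (log2 0.99, adjusted p 0.011, edgeR). The comparisons of strain and of genotype share samples, so their values are set side by side only.

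Levels of different genes can be compared only per length, here as CPM per kilobase of coding length. Tfrc was highest in every group, with means of 24.3 ± 2.48 (wild type) and 22.3 ± 2.65 (mutant) on C57BL/6 and of 19.3 ± 1.90 and 23.7 ± 1.87 on BALB/c (SD over 3 samples). It did not overlap the next gene in any group. In C57BL/6 wild type every other gene overlapped its neighbour in the order, from Lmo2 (7.72 ± 1.70) down to Gfi1b (2.01 ± 0.908). In C57BL/6 mutants the order ended with Klf1 (0.845 ± 0.124), Gata1 (0.587 ± 0.0201) and Gfi1b (0.474 ± 0.0312), and these 3 did not overlap. In BALB/c mutants Klf1 ranked 4 of 10, at 10.2 ± 1.14, and overlapped Nfe2 at 9.16 ± 1.14. Gata2 was lowest of the 10 in both BALB/c groups, at 1.81 ± 0.116 and 2.37 ± 0.443, while it ranked 4 of 10 in C57BL/6 wild type at 6.26 ± 2.19 (CPM per kilobase, SD, n = 3 each).

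The ratio of Gata2 to Gata1, each per kilobase, set the strains apart. It was 2.25, 2.19 and 2.06 in C57BL/6 wild type and 4.99, 1.80 and 2.31 in C57BL/6 mutants, where replicate 4 was the high sample. In BALB/c it was 0.530, 0.517 and 0.283 in wild type and 0.511, 0.335 and 0.354 in mutants. All C57BL/6 samples lay above all BALB/c samples, while the genotypes overlapped within each strain. The C57BL/6 groups, both above 1, thus held more Gata2 than Gata1 per length in each sample, and the BALB/c groups less.

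**Figure D3:**
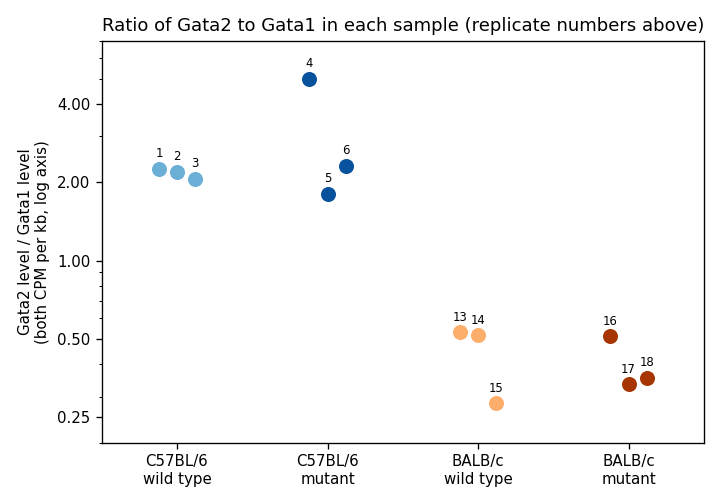
Ratio of Gata2 to Gata1 (both in CPM per kilobase, log axis) in each of the 12 samples, with replicate numbers above the points. C57BL/6 samples lie between 1.80 and 4.99 and BALB/c samples between 0.283 and 0.530.

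Likeness to other genes was measured as the root mean square difference between log2 CPM values, each gene centred on its own mean, over the 12 samples and 12767 candidate genes. With the other 9 genes of the set left out as candidates, the genes nearest to Klf1 were Cldn13 (0.230), Hemgn (0.235) and Slc38a5 (0.244). Hemgn, for example, averaged 19.6 ± 6.04 (wild type) and 4.11 ± 1.06 CPM (mutant) on C57BL/6 and 24.0 ± 1.79 and 37.8 ± 2.70 CPM on BALB/c (SD over 3 samples). Nearest to Epor were Gpr81 (0.202), Lyl1 (0.215) and Mfsd2b (0.216). Nearest to Gata2 were Mtap7 (0.196), Art4 (0.211) and Sfrp1 (0.221). Tfrc varied little (0.174 around its own mean), and Mtbp (0.0872), Spire1 (0.0934) and Nars2 (0.0948) were nearest to it. Within the set, Tal1 and Lmo2 were the closest pair (0.132), Gata1 was closest to Gfi1b (0.199) and 1.34 from Gata2, and Klf1 was 0.233 from Gata1.

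Other genes of the same pathways were read from lists fixed by name. Of 19 further regulators and partners tested, 4 fell and 1 rose in C57BL/6 mutants, and 0 passed in BALB/c (edgeR). The gene that rose was Bach1, a haem-sensing repressor (log2 0.29, SE 0.0708, adjusted p 0.0136), and Lyl1, a relative of TAL1, was among those that fell (log2 -0.60, adjusted p 0.00857); both were named after their values were seen. Myb, a progenitor factor, changed by -1.83 in log2 units (SE 0.288, adjusted p 0.00171), E2f2, a cell cycle factor of maturing red cells, by -1.30 (SE 0.117, adjusted p 9.82e-05) and Bcl11a, a repressor of fetal globin, by -1.09 (SE 0.262, adjusted p 0.0134). Of 13 genes of EPO receptor signalling tested, 2 rose and 2 fell in C57BL/6 mutants, shares near those over all genes (11.3% higher and 12.6% lower). The 2 that rose, named after their values were seen, were Jak2, the kinase bound to EPOR (log2 0.36, SE 0.0764, adjusted p 0.00772), and Stat5a, a transcription factor it activates (log2 0.30, SE 0.0848, adjusted p 0.0243). Kit, the stem cell factor receptor, had a log2 change of -0.95 with SE 0.153 (adjusted p 0.00185), and Bcl2l1, a survival factor, one of -0.58 with SE 0.115 (adjusted p 0.00557). Fam132b, which encodes the erythroid hormone erythroferrone, did not pass (log2 -0.87, adjusted p 0.0721). The median log2 changes of these lists in C57BL/6 were 0.11 and 0.07, against -0.004 over all genes tested.

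Of 14 genes of iron uptake and storage, 4 rose and 3 fell in C57BL/6 mutants, against 11.3% and 12.6% of all genes, and the list's median log2 change was 0.08. The 4 that rose, named after their values were seen, were the iron exporter Slc40a1 (log2 0.40), the ferritin receptor Ncoa4 (0.28), the ferritin light chain Ftl1 (0.24) and the iron sensor Aco1 (0.20). The 3 that fell had the largest changes of the list: the mitochondrial iron importer Slc25a37 (log2 -1.05, SE 0.110, adjusted p 0.000219), its partner Abcb10 (-0.60, SE 0.0869, adjusted p 0.00109) and the haem synthesis carrier Slc25a38 (-0.47, SE 0.0921, adjusted p 0.00543). Abcb10 was also called in BALB/c, where it rose by 0.57 (SE 0.0874, adjusted p 0.0398). Of 15 genes of red cell structure tested, 14 fell in C57BL/6 mutants and 3 rose in BALB/c mutants, against 12.6% and 0.0926% of all genes. The medians of this list were -1.84 and 0.63. Of 9 listed globin genes 4 were tested and 0 were called in either strain, and the summed level was between 1.63 and 7.55 CPM in the 12 samples; the adult globin genes are near-identical copies, so these counts are uncertain.

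Markers of other cells were read too, beside 12.6% of all genes called lower and 11.3% higher in C57BL/6 mutants (edgeR). In C57BL/6 mutants 6 of 8 megakaryocyte genes fell (median log2 -1.30), with summed levels of 30.0 to 39.0 CPM in wild type and 15.5 to 19.8 CPM in mutants. Proliferation genes, 9 of 10 lower, summed to between 652 and 714 CPM and between 430 and 543 CPM. Macrophage genes, 3 of 8 higher (Cd163, Cd68 and Csf1r) and 0 lower, summed to between 319 and 402 CPM and between 536 and 620 CPM. Their median log2 change was 0.18. Most of these sums came from Csf1r, with means of 203 and 344 CPM, and Cd68, with means of 74.2 and 141 CPM. The rise in the sum is thus not one of most genes of the list. Endothelial genes, 3 of 8 higher and 0 lower, summed to between 463 and 552 CPM and between 587 and 754 CPM, with a median log2 change of 0.27. Of 5 mast cell genes tested 1 fell (Hdc), a count too small to set apart from the share over all genes. The mast cell sums overlapped, at 13.6 to 32.9 and 13.1 to 25.5 CPM, with Ms4a2 at 0 in both groups. The part of these cells in the results was not tested. The skull groups also differed in sex-linked transcripts, with Y-linked genes in all 3 C57BL/6 wild type samples and in 1 sample of each other group. With a sex indicator in the fit the numbers of genes called were the same as without it.

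**Figure D4:**
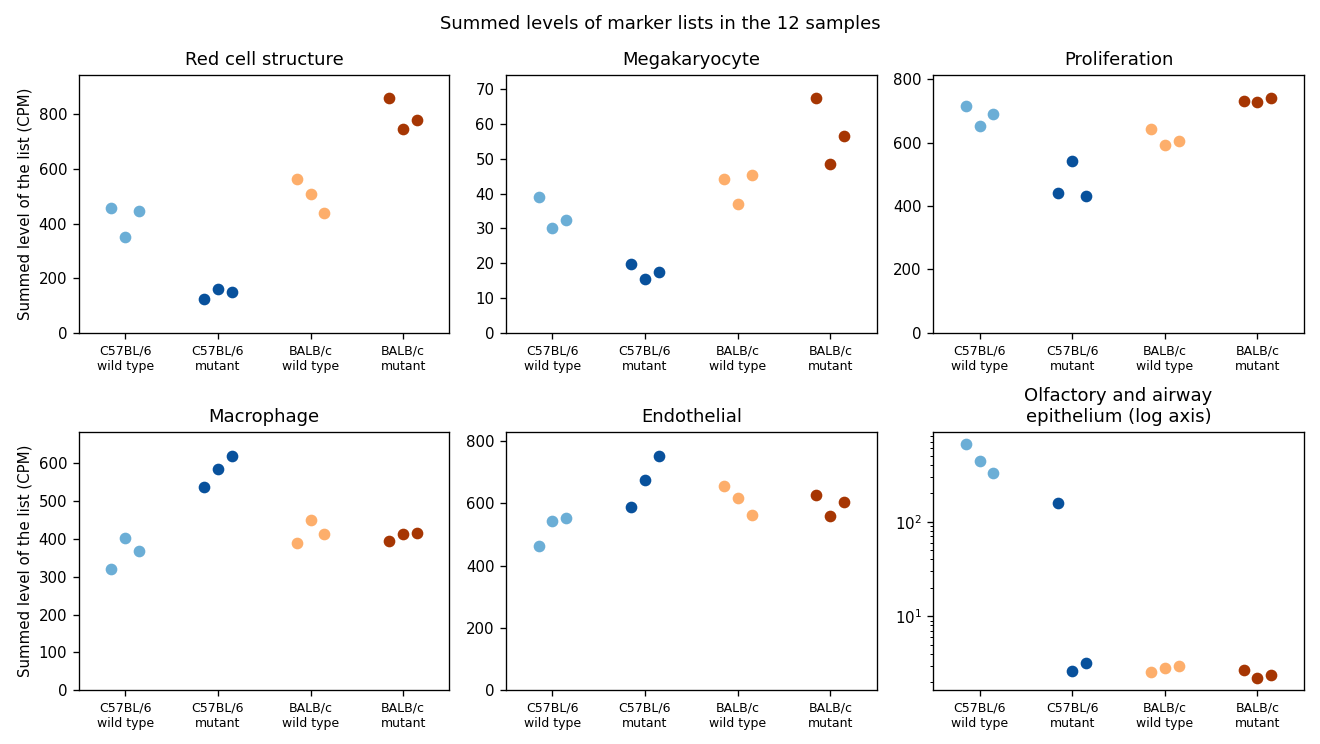
Summed level of 6 marker lists in CPM (vertical axes from 0, except the epithelial list on a log axis) in the 12 samples. Red cell, megakaryocyte and proliferation sums are lowest in C57BL/6 mutants and highest in BALB/c mutants, macrophage sums are highest in C57BL/6 mutants, and the epithelial sum is 157.6 CPM in C57BL/6 mutant replicate 4 against 2.62 and 3.23 CPM in its other replicates.

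The authors' deposited table of DESeq2 comparisons held all 10 genes. By the authors' deposited table, 9 of the 10 had a q-value under 0.05 between C57BL/6 mutants and wild type, with Tfrc the exception (q-value 0.639), where 13.8% of all genes with a q-value were called lower. Klf1 was the gene with a q-value under 0.05 in BALB/c in the authors' deposited table (log2 0.72, q-value 0.0334), where 1.13% of all genes with a q-value were called higher. In the authors' deposited table the C57BL/6 log2 fold changes ran from -2.22 for Klf1 to -0.11 for Tfrc.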

How the data were processed

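RNA from 12 samples was sequenced. The authors deposited gene counts, RPKM values and coding lengths for each sample; bcl2fastq, TopHat2 2.0.6, HTSeq, DESeq2 and build mm10 are named in the submitters' processing notes, with no roles. Strand and annotation are not given in the sources used here. Deposited RPKM values, which divide by a library total above the sum of gene counts, were not used. The authors' deposited comparison table gives a log2 fold change with its p-value and q-value per comparison, used only as quoted. Of the value columns, 0 belonged to no sample.

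Counts were fitted with edgeR 4.0.16 in R 4.3.3: filterByExpr (minimum count 10, minimum total 15), which kept 16190 genes, TMM scaling and 1 quasi-likelihood model with a mean per group over all 12 samples. P-values were adjusted by Benjamini-Hochberg over all genes, with a threshold of 0.05. The SE is the one implied by the F statistic. CPM uses TMM-scaled libraries; log2 CPM used a prior count of 2. The model was tested on simulated data. Coordinates are as deposited, counted from 1. No gene shared a 50-base word with other genes' GENCODE transcripts.

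The members and lists were chosen with earlier results of these data known. The text names all 10 genes, from each other list at most 3 genes with the largest C57BL/6 change, with other called genes of the regulator, EPO and iron lists named where the text says so, and the 3 nearest genes to Klf1, Gata2, Epor and Tfrc. Fgfr2 and the mast cell gene Ms4a2 were named besides. Alternatives were DESeq2 1.42.0, RLE or total-count scaling, TMM without globins, no filter, only the groups compared, a sex indicator and leaving out each sample.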

Additional observations from a re-analysis of the deposited data

Results flagged for a closer look

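The genotype effect differed between the strains by the test of the interaction for 9 of the 10 genes (edgeR, adjusted p under 0.05), with a more positive effect in BALB/c each time, against 5.46% of all genes called in that direction. On the log2 scale the difference was 3.30 for Klf1, 2.73 for Gata1, 2.65 for Gfi1b, 2.18 for Gata2, 1.70 for Nfe2, 1.37 for Lmo2, 1.25 for Tal1, 1.23 for Epor and 0.66 for Zfpm1. Every C57BL/6 mutant sample was below every C57BL/6 wild type sample for these genes, as for 21.9% of all genes. In BALB/c every mutant sample was above every wild type sample for 8 of the 9, with Gata1 the exception, against 9.93% of all genes. Groups of 3 samples were not tested for outliers.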

How the results depend on the processing

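No fitted value of the 10 genes changed sign in any of the alternatives run for the 5 comparisons. The number called in C57BL/6 was 9 in every fit that left out 1 sample and 7 with only the 6 samples compared. In BALB/c it was 0 in every fit that left out 1 sample, 2 with DESeq2 and 2 with only the 6 samples compared. Under the last 2 rules 1.75% and 0.341% of all genes were called higher. Why these rules called more was not tested. The interaction called 8 to 9 genes when 1 sample was left out, and 10 with DESeq2 and with total counts, where Tfrc passed (adjusted p 0.0388 and 0.032). Over all genes DESeq2 also called more in the interaction, at 2707 against 1626 with edgeR and TMM. The strain comparison called 5 to 9 genes in wild type and 8 to 9 in mutants when 1 sample was left out. With all samples, 48.5% and 36.9% of all genes were called in these comparisons in either direction (edgeR). Scaling by total counts moved the median log2 fold change of all genes by -0.20 in C57BL/6 and by 0.23 in the interaction. It called 13.2% of the changed genes in C57BL/6 higher, against 48.0% with RLE factors, while the 10 genes kept their signs. In the interaction it called 1847 genes, 90.5% of them higher, against 884 higher of 1626 with TMM. It called 31.2% higher in the wild type strain comparison and 67.8% in that of mutants, against 3698 of 7847 and 2914 of 5968 genes with TMM. No paired analysis was run, as the sample labels used here link no sample of a group to a sample of another. Depth limits Gfi1b most, at 30 to 38 counts in each C57BL/6 mutant sample. As all counts were even numbers, the number of fragments behind these counts is not known.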

Other observations

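Neutrophil, B cell and blood progenitor lists had negative medians in C57BL/6, as the red cell genes did, while the macrophage list had 3 of 8 genes higher and a median of 0.18. Of all genes tested, the C57BL/6 comparison called 12.6% lower and 11.3% higher, and the BALB/c comparison 0.0926% higher. Of 7 neutrophil genes tested, 4 fell in C57BL/6 mutants and 0 passed in BALB/c (edgeR), with median log2 values of -0.74 and 0.35. The summed neutrophil level did not overlap in BALB/c, at 550.4 to 649 CPM in wild type and 771 to 845 CPM in mutants. In C57BL/6 it overlapped, at 215 to 386 CPM in wild type and 110 to 244 CPM in mutants. Mpo, a granule enzyme of early neutrophils, had a log2 change of -1.88 with SE 0.380 (adjusted p 0.00601). Of 6 B cell genes, 2 fell in C57BL/6 mutants and 0 passed in BALB/c, with medians of -0.72 and 0.69, and the surrogate light chain gene Igll1 changed by -1.39 (SE 0.261, adjusted p 0.00428). The summed B cell level did not overlap in BALB/c either, at 36.8 to 39.6 CPM and 55.3 to 73.6 CPM. Of 5 blood progenitor genes, 3 fell in C57BL/6 mutants and 0 passed in BALB/c. Osteoclast genes went the other way, with 6 of 6 higher in C57BL/6 mutants and a median of 0.97. No test compared these lists with each other.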
